A study of Homo sapiens with 4 samples.

Results

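The 36 genes described here encode enzymes of cholesterol synthesis and of fatty acid synthesis and activation. These genes also encode proteins that switch those enzymes on or off, and a few sterol carriers. They were chosen by name, as the rows of the count table whose symbol was on the list, in all 4 libraries. All 36 were found among the 60662 genes of the table, and 33 of them were among the 10505 genes with enough counts to be tested. The cells were HAP1, an attached, near-haploid human line that derives from KBM-7, a line of chronic myeloid leukaemia. The cDNA of total RNA was amplified by PCR and read on an Oxford Nanopore long-read sequencer. The study set cells with MATR3, a nuclear protein that binds RNA and DNA, against cells in which the gene was knocked out (KO). The wild-type (WT) group had 2 libraries of the unedited control clone 4, here called WT A and WT B. The KO group had 1 library each of the purchased MATR3 KO clones 1 and 5. No drug, sterol depletion or lipid load was named for either group, and all 4 libraries came from cells grown in the same medium with heat-inactivated calf serum.

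Cells make cholesterol from acetyl-CoA through mevalonate, squalene and lanosterol, and fatty acids from acetyl-CoA through malonyl-CoA. Transcription factors of the SREBP family, encoded by SREBF1 and SREBF2, turn on most genes of both routes. When membrane sterol is low, the escort protein SCAP carries SREBP from the endoplasmic reticulum to the Golgi, where it is cut and freed. When sterol is high, INSIG proteins hold SCAP back.

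Library totals were 3509906 (WT A), 5303199 (WT B), 3121759 (KO clone 1) and 4024026 counts (KO clone 5), and the 36 genes took 0.203%, 0.233%, 0.275% and 0.229% of them. Nothing in the labels says that the WT libraries came from separate cultures, and p-values therefore measure only the spread among these libraries, which may be technical. Each KO clone is a single clone with a single library. The KO columns carry a later date tag than the WT columns, which means that effects of genotype and of date cannot be told apart. The WT columns carry differing tags, "FACS" and "test", of unstated meaning. The 2 gene models of MATR3 itself held 41 and 171 counts (WT A), 43 and 304 (WT B), 27 and 187 (KO clone 1) and 37 and 204 (KO clone 5). A whole-gene count can miss a small edit, so these values do not check the KO labels. Of 10 haematopoietic markers 8 were at 0 in every library, PTPRC, CD34 and SPI1 among them, although HAP1 comes from a leukaemia line. HBA1 was the main exception, with 82, 125, 34 and 81 counts, and their sum ran from 82 to 125 counts in WT and from 35 to 81 in KO. Hepatocyte markers (4 of 6 at 0, with ALB at 0 or 1), adipocyte markers (3 of 5 at 0, ADIPOQ, LEP and FABP4) and steroidogenic markers (3 of 4 at 0, CYP11A1 among them) were near the floor, with sums of 5 to 9, 0 to 1 and 4 to 14 counts. The steroidogenic sum was STAR alone, counted 4 and 5 times in WT but 14 and 10 times in KO. Their part in the results was not tested. In bulk libraries such as these, fewer cells of a kind and less RNA per cell cannot be told apart.

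No gene of the sterol and fatty acid routes passed the test between KO and WT. Of the 33 tested, 0 were higher and 0 were lower in KO at an edgeR Benjamini-Hochberg adjusted p under 0.05, against 1.58% of all tested genes higher and 0.609% lower. At an unadjusted p under 0.05 there were 9, of which 6 had the higher value in KO and 3 the lower, against 1718 of the 10505 genes. DESeq2 and limma-voom, run as alternatives, also gave 0 calls among these genes at an adjusted p under 0.05. The log2 fold changes of KO over WT lay on both sides of 0, at 17 above and 16 below. Their median was 0.01 (range -0.99 to 1.11), and the median over all tested genes was 0.002. In 9 genes both KO libraries lay above both WT libraries, in 9 both lay below, and in 15 the groups overlapped. Over all tested genes 25% had both KO libraries above and 22.8% had both below, close to the share seen here. The median standard error was 0.31. With 2 libraries a group, differences of KO over WT of 2.17-fold (EBP) and 2.04-fold (INSIG1) did not pass. The 0 calls therefore do not exclude changes of about 2-fold in single genes.

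**Figure D1:**
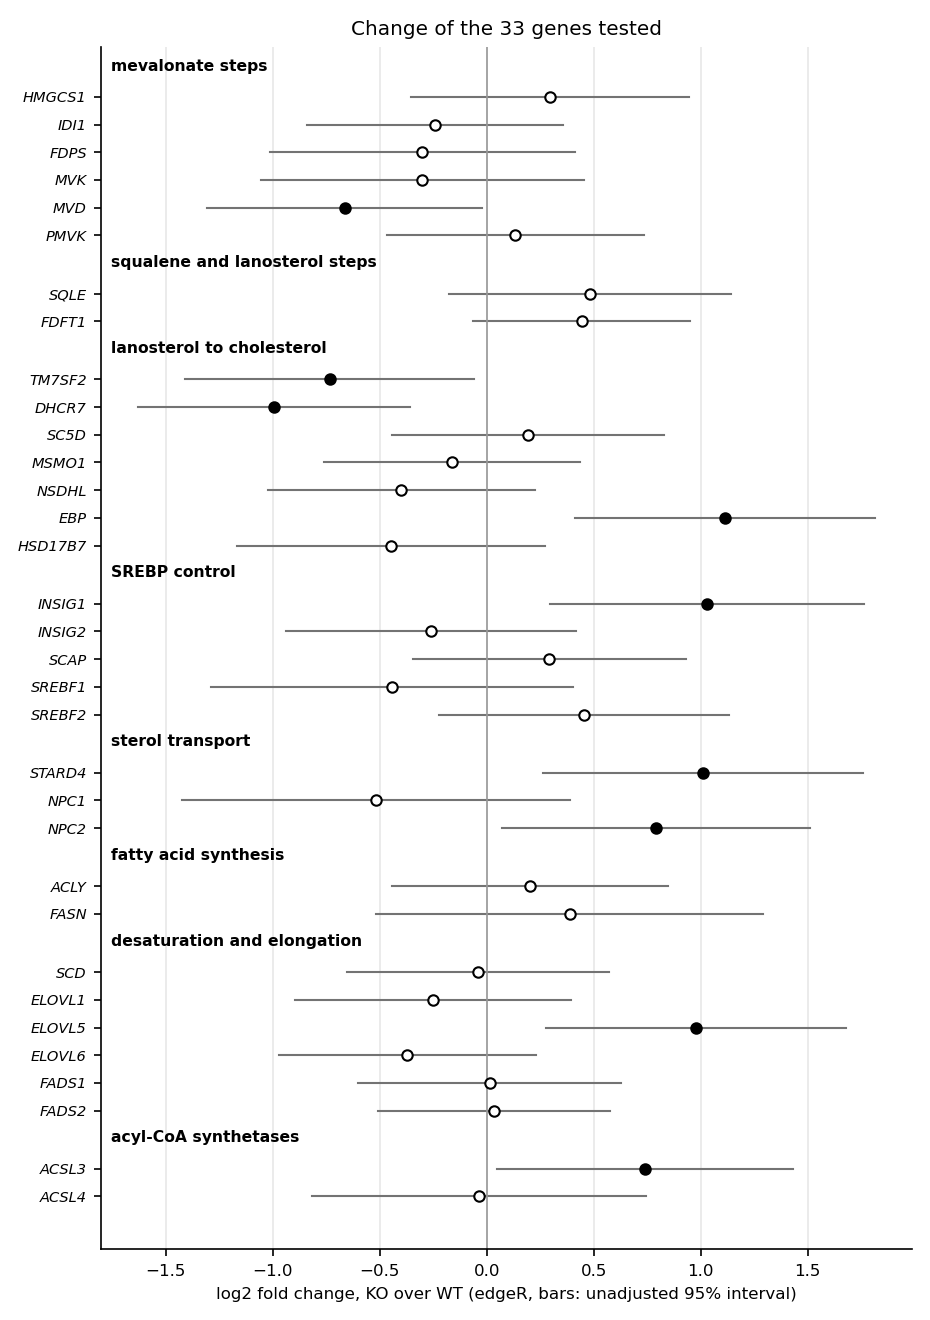
Log2 fold change of KO over WT (x axis) for each of the 33 tested genes, grouped by role, with the unadjusted 95% interval as a bar. Filled points are the 9 genes whose interval leaves out 0, of which EBP at 1.11 and DHCR7 at -0.99 are the outermost, and 0 of the 33 passed the adjusted test.

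The early steps of the sterol route, from acetyl-CoA to farnesyl diphosphate, had 6 genes, all tested, with a median log2 fold change of -0.27. HMGCS1, which makes HMG-CoA and is a classical SREBP target, was counted 45 and 85 times in WT and 55 and 74 times in KO. Its level in CPM, the counts scaled to library size, was 14.5 ± 1.73 CPM in WT and 17.9 ± 1.59 CPM in KO (SD, n = 2 each), with both KO libraries above both WT libraries. The log2 fold change was 0.30 (standard error 0.30, adjusted p in edgeR = 0.670), with an unadjusted 95% interval of -0.35 to 0.94. MVD, which decarboxylates its substrate to isopentenyl diphosphate, the building unit of all isoprenoids, was counted 194 and 301 times in WT and 95 and 164 times in KO. Both KO libraries were below both WT libraries, with 56.5 ± 1.11 CPM in WT and 35.5 ± 9.31 CPM in KO (SD, n = 2 each), and the log2 fold change of -0.66 did not pass the test (standard error 0.30, adjusted p in edgeR = 0.286). The kinases MVK and PMVK, which phosphorylate mevalonate in turn, had overlapping groups. MVK stood at 17.7 and 15.2 CPM in WT, 8.84 CPM in KO clone 1 and 17.5 CPM in KO clone 5. IDI1, the isomerase of isopentenyl diphosphate, and FDPS, which makes farnesyl diphosphate, had log2 fold changes of -0.24 and -0.30, with both KO libraries below both WT libraries. Annotated pseudogenes of FDPS held 25 counts beside its own 153, and with these added its log2 fold change was -0.47 (standard error 0.33, adjusted p in edgeR = 0.506).

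The squalene and lanosterol steps held the most abundant gene of the 36. FDFT1, squalene synthase and the first enzyme committed to sterols, was counted 1686 and 3057 times in WT and 2739 and 2383 times in KO. Its level was 532 ± 48.0 CPM in WT and 723 ± 157 CPM in KO (SD, n = 2 each), with both KO libraries above both WT libraries. The log2 fold change of 0.44 did not pass the test (standard error 0.24, adjusted p in edgeR = 0.378). SQLE, squalene epoxidase and a classical SREBP target, was counted 319 and 407 times in WT, 489 times in KO clone 1 and 341 times in KO clone 5. KO clone 1 alone stood above the WT libraries and KO clone 5 lay between them, so the groups overlapped, with a log2 fold change of 0.48 (standard error 0.31, adjusted p in edgeR = 0.467, unadjusted 95% interval -0.18 to 1.14). LSS, lanosterol synthase, was not tested: its counts were 1 and 2 in WT, then 2 and 1 in the KO clones.

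The last stretch, from lanosterol to cholesterol, held both ends of the range. EBP, the isomerase that shifts a double bond in the sterol ring, was counted 88 and 213 times in WT and 284 and 219 times in KO. Its level was 26.0 and 39.4 CPM in WT, and 86.5 and 56.2 CPM in KO clones 1 and 5, so that both KO libraries were above both WT libraries. The difference was 2.17-fold, a log2 fold change of 1.11 (standard error 0.33, unadjusted 95% interval 0.41 to 1.81), and with an edgeR adjusted p of 0.103 it did not pass the test. With no filter on low counts EBP did pass, at an edgeR adjusted p of 0.0295. EBP shares 57.1% of its exonic bases on the same strand with another GENCODE 44 gene model. HMGCS1 and FDPS share 46.7% and 41.4% of theirs with gene models on the opposite strand. The sources used here do not state how reads of such shared bases were assigned. DHCR7, the reductase that ends one branch of the route, was counted 153 and 227 times in WT and 64 and 94 times in KO. Levels were 43.6 ± 2.24 CPM in WT and 21.8 ± 3.28 CPM in KO (SD, n = 2 each), with both KO libraries below both WT libraries. WT was 1.99-fold above KO, a log2 fold change of -0.99 (standard error 0.30, adjusted p in edgeR = 0.107), with an unadjusted 95% interval of -1.63 to -0.36. SC5D acts between EBP and DHCR7 in the route, and the values of EBP and DHCR7 lay on opposite sides of 0.

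TM7SF2, a sterol reductase that works in parallel with the lamin B receptor, was counted 68 and 164 times in WT and 47 and 63 times in KO. Its levels were 25.2 ± 7.26 CPM in WT and 15.3 ± 1.31 CPM in KO (SD, n = 2 each), with both KO libraries below both WT libraries, and the log2 fold change of -0.73 did not pass the test (standard error 0.32, adjusted p in edgeR = 0.264). MSMO1, NSDHL and HSD17B7, which together strip methyl groups from the sterol ring, had log2 fold changes of -0.16, -0.40 and -0.45. For NSDHL both KO libraries were below both WT libraries, and for the other two the groups overlapped. SC5D, a desaturase of the same stretch, had overlapping groups as well and a log2 fold change of 0.19. CYP51A1, the lanosterol demethylase, was not tested, with 4 counts in each WT library and 5 in each KO library. Summed over the 17 sterol enzymes the level was 1276 and 1284 CPM in WT and 1533 and 1377 CPM in KO, a KO to WT ratio of 1.14. Without FDFT1 the same sum was 778 and 718 CPM in WT and 699 and 765 CPM in KO, a ratio of 0.978. The excess of the full sum was thus that of FDFT1.

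**Figure D2:**
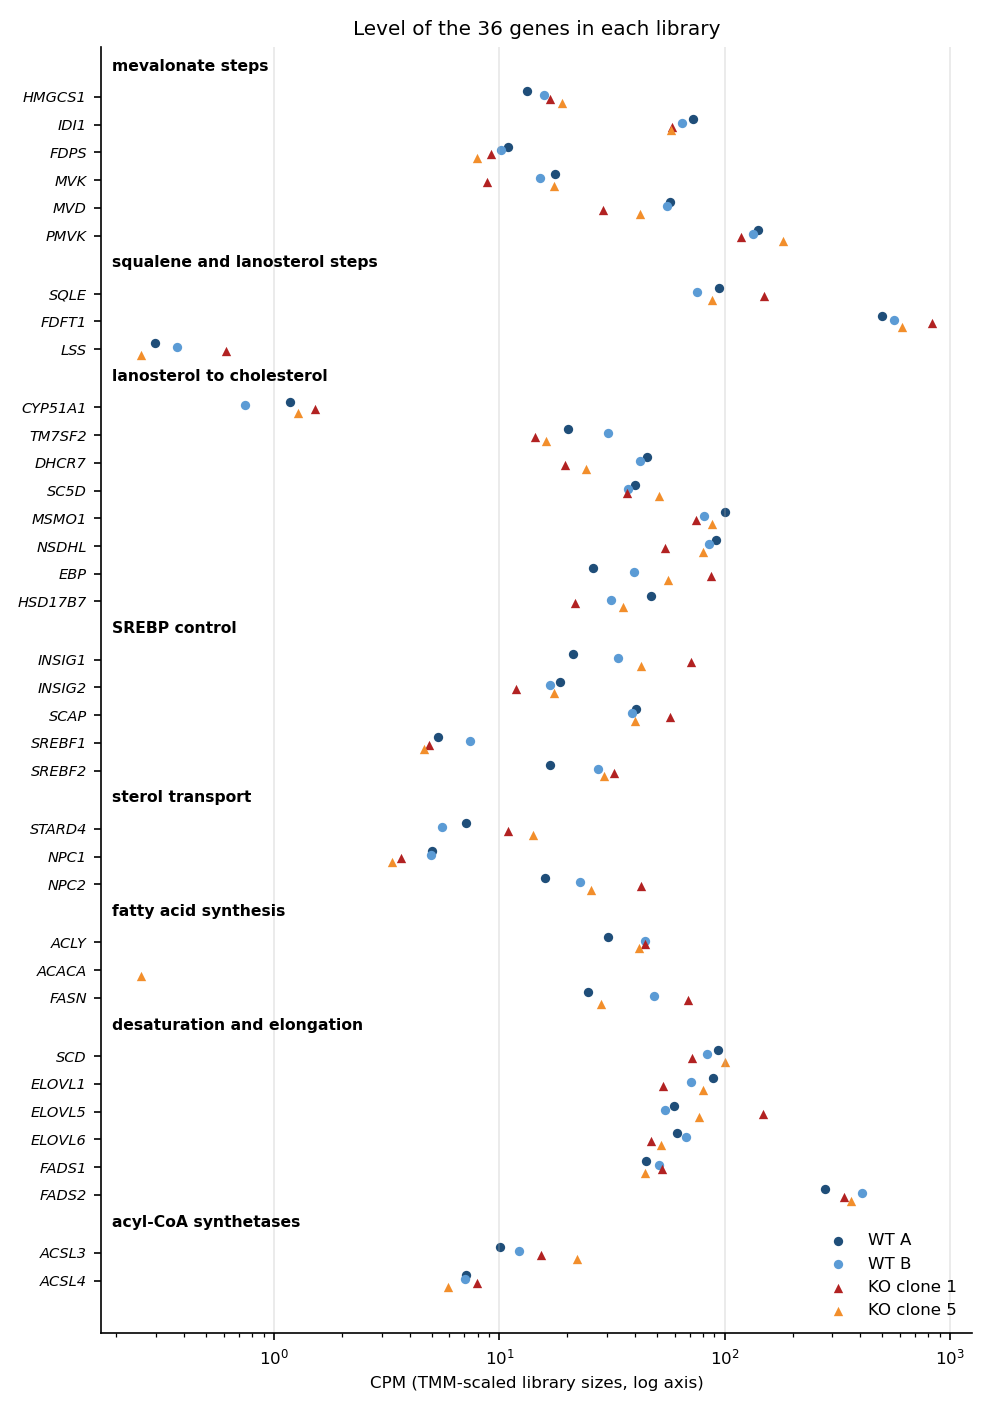
Level of each of the 36 genes in each library, in CPM on a log axis, grouped by role, with circles for WT A and WT B and triangles for KO clones 1 and 5. FDFT1 and FADS2 lie to the right of all other genes in every library, LSS, CYP51A1 and ACACA lie near the floor, and libraries of ACACA at 0 counts are not drawn.

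FDFT1 also led per length. Divided by the length of the canonical transcript, FDFT1 stood at 261 ± 23.6 CPM per kb in WT (SD, n = 2). PMVK at 136 ± 4.73 and FADS2 at 111 ± 29.0 CPM per kb followed, and their values did not differ beyond their spread. The division assumes that counts rise with transcript length, which was not tested in these long-read libraries. Without it FADS2 (343 ± 89.7 CPM in WT) stood above PMVK (137 ± 4.74 CPM in WT). STARD4, at 1.36 ± 0.234 CPM per kb, and NPC1, at 1.05 ± 0.0033 CPM per kb, were among the lowest of the tested genes. The 3 genes left untested were lower still in WT, with LSS at 0.0681 ± 0.0109 and CYP51A1 at 0.305 ± 0.0989 CPM per kb, and ACACA at 0 counts. LSS and ACACA each have a copy on 1 alternate contig of hg38, which covers 88.2% and 100% of the transcript. CYP51A1 shares 90.1% of its exonic bases on the same strand with other gene models, and its pseudogenes held 6 counts beside its own 18. The part of these overlaps in the low counts was not tested.

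Among the 5 controllers of SREBP, INSIG1 had the largest difference. INSIG1, the sterol-sensitive anchor of SCAP and itself a classical SREBP target, was counted 72 and 182 times in WT and 233 and 165 times in KO. Its level was 21.3 and 33.7 CPM in the WT libraries, 71.0 CPM with KO clone 1 and 42.4 CPM with KO clone 5. Both KO libraries lay above both WT libraries, by 2.04-fold on average, and the log2 fold change of 1.03 did not pass the test (standard error 0.34, adjusted p in edgeR = 0.146, unadjusted 95% interval 0.30 to 1.76). Its paralog INSIG2, which does the same task and is not a classical SREBP target, had overlapping groups and a log2 fold change of -0.26. SCAP had overlapping groups, at 40.5 and 38.7 CPM in WT, 57.0 in KO clone 1 and 40.1 in KO clone 5. SREBF2, the SREBP gene that chiefly drives sterol enzymes, was counted 57 and 148 times in WT and 106 and 113 times in KO. SREBF1, whose products chiefly drive fatty acid enzymes, was counted 18 and 40 times in WT and 16 and 18 times in KO. Their log2 fold changes were 0.46 (standard error 0.32) and -0.44 (standard error 0.40), with edgeR adjusted p of 0.505 and 0.613, and in neither did the KO and WT libraries overlap in CPM.

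Shares within paralog pairs put the same counts against each other within a library, free of any scaling between libraries. INSIG1 held 53.3% of the INSIG1 and INSIG2 counts in WT A (exact 95% interval 44.6 to 62.0), 66.7% in WT B (60.7 to 72.2), 85.7% in KO clone 1 (80.9 to 89.6) and 70.8% in KO clone 5 (64.5 to 76.6). KO clone 1 stood apart from every other library, whereas the intervals of KO clone 5 and WT B overlapped. SREBF1 held 24.0% and 21.3% of the SREBF1 and SREBF2 counts in WT and 13.1% and 13.7% in KO, with intervals of 14.9 to 35.3, 15.7 to 27.8, 7.69 to 20.4 and 8.35 to 20.8. Both KO shares were below both WT shares, with overlapping intervals. These intervals hold for counting error alone, because reads copied by PCR are not independent molecules.

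**Figure D3:**
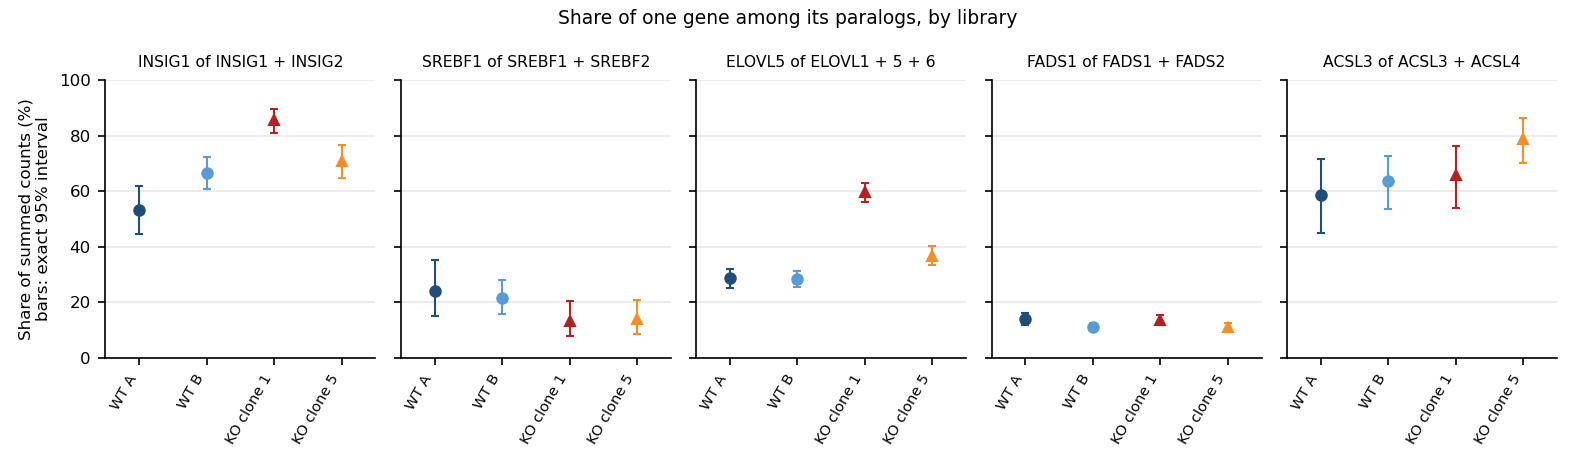
Share of the counts of a paralog group (y axis, in percent) that belonged to the gene named first, in each of the 4 libraries, with exact 95% counting intervals. INSIG1 (85.7%) and ELOVL5 (59.6%) are highest in KO clone 1, ACSL3 (78.9%) is highest in KO clone 5, and FADS1 stays between 10.9% and 13.8%.

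SREBP binds DNA sites called sterol regulatory elements, often beside the CCAAT box of NF-Y and the GC box of Sp1, and promoter sequence was searched for letters like these. RefSeq windows (GRCh38.p14) of 250 bases before to 50 bases after a start were at hand for 33 of the 36 genes, 44 windows in all, among 35116 windows of all genes. Matches of TCANNCCAC or ATCANNCCA, patterns of the same element that can overlap by all but 1 base, were sought on both strands. They were found in 5 of the 44 windows (11.4%), against 5.63% of all windows and 4.06% of those of tested genes. The 5 windows belonged to ACLY, ELOVL5, INSIG1, SREBF2 and STARD4. CCAAT, on either strand, was in 28 windows (63.6%, against 34.6% of all and 34.9% of those of tested genes). GGGCGG was in 39 (88.6%, against 45.0% of all and 67.6% of those of tested genes). Windows of 1 gene can overlap, as those of ACLY do, so the 44 are not independent promoters. A match is no proof of a bound site, and a window without one may hold the element in other letters. The 5 matches are shown in runs of 30 bases, 5′ to 3′ on the strand of the gene, with the match in capitals, because 3 of these genes (INSIG1, ELOVL5 and STARD4) are among the 5 with the lowest p. They lie at chr7:155297759-155297788 (plus strand) for INSIG1, chr6:53348969-53348998 (minus) for ELOVL5, chr5:111512697-111512726 (minus) for STARD4, chr22:41832961-41832990 (plus) for SREBF2 and chr17:41919243-41919272 (minus) for ACLY.
INSIG1: gcggggcaagcTCAGGCCACgcccctgggc
ELOVL5: tgacgtcacggTCAGCCCACgttctgattg
STARD4: cccacgcggaATCATTCCAtttatcggcca
SREBF2: atgacgcgccATCACCCCACgcaccgcttc
ACLY: aagcgATCAGGCCACaacccccagcaccgc

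The matches in INSIG1 and ACLY share the letters TCAGGCCAC. Those of INSIG1, ELOVL5 and SREBF2 overlap annotated exons, and those of STARD4 and ACLY do not. The matches of the 5 genes began 108 bases before the RefSeq start in INSIG1, 37 in ELOVL5, 181 in STARD4, 134 in SREBF2 and 245 in ACLY. The log2 fold changes of KO over WT of these genes were 1.03, 0.98, 1.01, 0.46 and 0.20 in that order, with none past the test. Genes with a window and no match lay on both sides of 0, such as the SREBP targets HMGCS1 at 0.30 and SCD at -0.04. SQLE, FDFT1 and FASN had no window. The matches were shown for the p-values of these same data, and a link between match and difference was not tested. EBP and DHCR7, the genes with the highest and the lowest log2 fold change, had no such match, and their sequences before the start are shown for comparison with CCAAT boxes (either strand) in capitals. EBP is at chrX:48521558-48521798 (plus strand, 241 bases) and DHCR7 at chr11:71448436-71448561 (minus strand, 126 bases), each cut to the longest stretch free of annotated exons.
EBP: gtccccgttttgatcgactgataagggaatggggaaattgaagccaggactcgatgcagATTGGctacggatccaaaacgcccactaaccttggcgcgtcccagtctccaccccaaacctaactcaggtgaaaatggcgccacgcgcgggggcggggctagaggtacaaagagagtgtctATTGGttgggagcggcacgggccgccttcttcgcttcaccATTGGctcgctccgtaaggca
DHCR7: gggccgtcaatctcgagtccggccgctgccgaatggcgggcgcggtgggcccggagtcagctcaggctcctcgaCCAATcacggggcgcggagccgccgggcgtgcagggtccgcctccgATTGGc

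The stretches shown hold CCAAT boxes, 3 in EBP and 2 in DHCR7. DHCR7 has another RefSeq window, at a start farther upstream, which held 0 matches of CCAAT and 0 of GGGCGG.

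Sterol carriers had 3 genes, all tested, with 69 (NPC1) to 415 (NPC2) counts over the 4 libraries. STARD4, which moves cholesterol between membranes through the cytosol, was counted 24 and 30 times in WT and 36 and 55 times in KO. Its level was 6.32 ± 1.09 CPM in WT and 12.5 ± 2.23 CPM in KO (SD, n = 2 each), both KO libraries above both WT libraries. The log2 fold change of 1.01 did not pass the test (standard error 0.35, adjusted p in edgeR = 0.161). NPC2, a lysosomal protein that hands cholesterol to NPC1, was counted 54 and 123 times in WT and 139 and 99 times in KO. Both KO libraries lay above both WT libraries in CPM, at 19.4 ± 4.82 in WT and 33.9 ± 11.97 in KO (SD, n = 2 each), for a log2 fold change of 0.79 (standard error 0.33, adjusted p in edgeR = 0.258). NPC1, its membrane partner, was counted 17 and 27 times in WT and 12 and 13 times in KO, and both KO libraries were below both WT libraries with a log2 fold change of -0.52 (standard error 0.42, adjusted p in edgeR = 0.576). The partners of the lysosomal export step thus had values on opposite sides of 0, with neither past the test.

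Fatty acid synthesis proper rests on ACLY, ACACA and FASN, and in these libraries ACACA, the acetyl-CoA carboxylase that makes malonyl-CoA, had 0, 0, 0 and 1 counts. A count of 0 allows up to 3 counts, a bound that covers counting error alone. ACACA has a copy on 1 alternate contig of hg38 that covers 100% of the transcript, and its part in these counts was not tested. The low counts therefore do not show how much ACACA RNA the cells held. ACLY, which makes cytosolic acetyl-CoA from citrate, had overlapping groups and a log2 fold change of 0.20 (standard error 0.30). FASN, the synthase that builds palmitate and a classical SREBP target, was counted 84 and 262 times in WT, 226 times in KO clone 1 and 110 times in KO clone 5. Its levels were 24.8 and 48.5 CPM in WT and 68.9 and 28.3 CPM in KO, so each group spanned a wide range and the groups overlapped. The log2 fold change of 0.39 carried the second largest standard error of the 33 genes (standard error 0.42, adjusted p in edgeR = 0.689, unadjusted 95% interval -0.52 to 1.29). KO clone 1 stood 2.44-fold above KO clone 5. FASN was the only gene of the 33 with clones at least 2-fold apart, against 10.4% of all tested genes. Between WT A and WT B 0 of the 33 were that far apart, against 6.73% of all tested genes, and FASN came closest at 1.95-fold. The median count per gene and library was 161 for the 33 genes and 55 over all tested genes. These shares are thus not matched for level, and the part of level in them was not tested.

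Desaturases and elongases shape the chains, and among these 6 genes ELOVL5 had the largest difference. SCD, which makes oleate and is a classical SREBP target, was counted 315 and 453 times in WT and 234 and 391 times in KO. Its level was 88.4 ± 6.49 CPM in WT and 85.9 ± 20.6 CPM in KO (SD, n = 2 each), with overlapping groups and a log2 fold change of -0.04 (standard error 0.28, adjusted p in edgeR = 0.967, unadjusted 95% interval -0.65 to 0.57). ELOVL5, which lengthens polyunsaturated chains, was counted 202 and 294 times in WT, 485 times in KO clone 1 and 299 times in KO clone 5. Levels were 59.6 and 54.4 CPM in WT and 148 and 76.8 CPM in KO, both KO libraries above both WT libraries. The 1.97-fold difference, a log2 fold change of 0.98, did not pass the test (standard error 0.33, adjusted p in edgeR = 0.148). ELOVL1, which makes very long saturated chains, and ELOVL6, which takes palmitate to stearate, had log2 fold changes of -0.25 and -0.37. ELOVL5 accordingly held 28.5% and 28.3% of the summed counts of these elongases in WT, 59.6% in KO clone 1 and 36.7% in KO clone 5. The exact 95% intervals ran from 25.2 to 32.0 and 25.6 to 31.1 in WT and from 56.1 to 63.0 and 33.4 to 40.1 in KO, so neither KO interval met a WT interval, and the KO clones differed more from each other than KO clone 5 did from WT. FADS1 and FADS2, neighbouring desaturases of polyunsaturated fatty acids on chromosome 11, had log2 fold changes of 0.01 (standard error 0.29) and 0.03 (standard error 0.25). FADS2, the second most abundant of the 36 in counts, was counted 946 and 2195 times in WT and 1115 and 1410 times in KO, with an unadjusted 95% interval of -0.51 to 0.57.

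Acyl-CoA synthetases activate fatty acids for use in lipids. ACSL3, found on nascent lipid droplets, was counted 34 and 66 times in WT and 50 and 86 times in KO. Its level was 11.1 ± 1.54 CPM in WT and 18.7 ± 4.84 CPM in KO (SD, n = 2 each), with both KO libraries above both WT libraries and a log2 fold change of 0.74 that did not pass the test (standard error 0.32, adjusted p in edgeR = 0.271). ACSL4, which prefers arachidonic acid, had overlapping groups and a log2 fold change of -0.04 (standard error 0.36). ACSL3 held 58.6% and 63.5% of the counts of this pair in WT and 65.8% and 78.9% in KO, and all 4 exact 95% intervals overlapped.

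The KO clones differed in how far they stood from WT. KO clone 1 was set against both WT libraries without KO clone 5, and the reverse, where the lone KO library is assumed to vary like the WT libraries; these comparisons share their WT libraries. With KO clone 1, 5 of the 33 genes were higher, against 5.99% of the 11254 genes tested there, and 1 was lower, against 3.21%. ELOVL5 rose by 1.37 on the log2 scale (standard error 0.26, adjusted p in edgeR = 0.00169) and EBP rose by 1.39 (standard error 0.30, adjusted p in edgeR = 0.00548). INSIG1 rose by 1.35 (standard error 0.31, adjusted p in edgeR = 0.00912) and NPC2 rose by 1.11 (standard error 0.32, adjusted p in edgeR = 0.0303). SQLE rose by 0.81 (standard error 0.26, adjusted p in edgeR = 0.0493), and FDFT1, the enzyme before it, missed the threshold at 0.65 (standard error 0.20, adjusted p in edgeR = 0.0501). DHCR7 fell by 1.16 (standard error 0.33, adjusted p in edgeR = 0.0300). The 5 that rose in KO clone 1 came from 5 roles: squalene epoxidation, sterol isomerisation, SREBP retention, lysosomal sterol export and chain elongation each gave 1.

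With KO clone 5 alone, 0 of the 33 genes passed in either direction, against 1.22% of 11429 genes higher and 0.481% lower. In that clone the log2 fold changes were 0.77 for EBP, 0.61 for INSIG1, 0.43 for ELOVL5, 0.38 for NPC2, 0.05 for SQLE and -0.85 for DHCR7. STARD4 and ACSL3 had the highest values there, at 1.18 (standard error 0.40, adjusted p in edgeR = 0.155) and 0.98 (standard error 0.34, adjusted p in edgeR = 0.166). In KO clone 1 the values of these genes were 0.81 and 0.44, neither past the test. FASN stood on opposite sides of 0, at 0.89 with KO clone 1 (standard error 0.35, adjusted p in edgeR = 0.138) and -0.39 with KO clone 5 (standard error 0.37, adjusted p in edgeR = 0.746). The difference between the clones was not tested, since each has 1 library. Clones also differed by transcript length over all genes: the log2 ratio of KO clone 1 to KO clone 5 had a Spearman correlation of 0.256 with the length of the canonical transcript over 9562 genes, which share 2 libraries, and of 0.115 over the 33 genes. For the log2 fold change of KO over WT the correlation with length was 0.19 over the same 9562 genes and 0.145 over the 33. For WT B over WT A it was 0.05 and 0.228. With the GC percent of the transcript, KO over WT gave -0.024 over the 9562 genes and -0.328 over the 33. WT B over WT A gave 0.209 and 0.343 there, and KO clone 1 over KO clone 5 gave -0.147 and 0.015. The part of length and GC in the values of single genes was not tested.

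**Figure D4:**
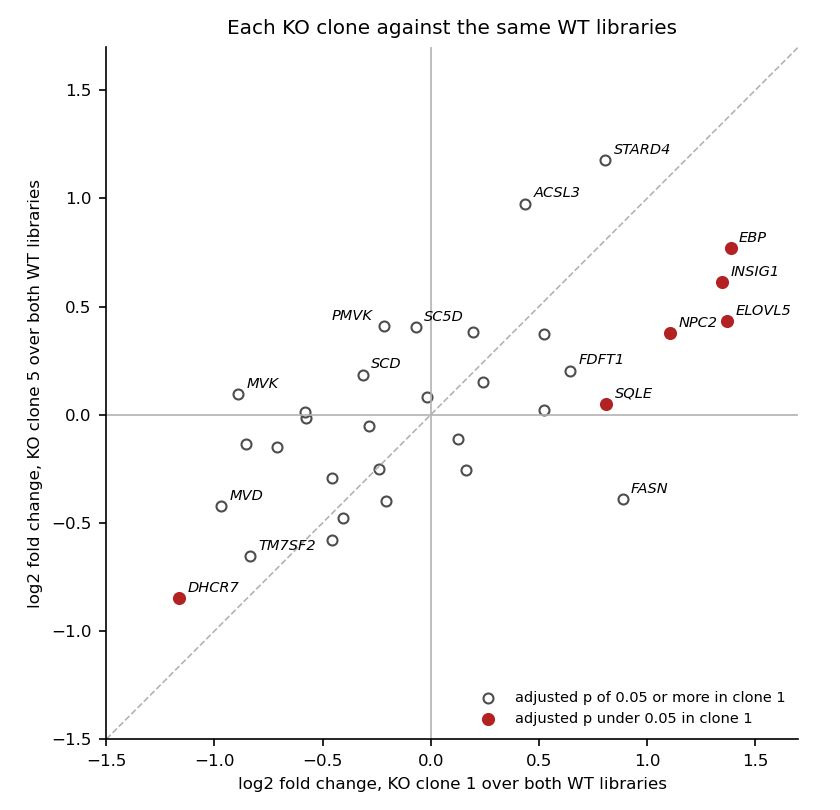
Log2 fold change over the same WT libraries for KO clone 1 (x axis) and KO clone 5 (y axis), 1 point for each of the 33 tested genes. Red points are the 6 genes with an edgeR adjusted p under 0.05 in KO clone 1, and FASN lies alone at lower right, at 0.89 in KO clone 1 and -0.39 in KO clone 5.

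Neighbouring lipid pathways were looked at through 65 further genes, of which 59 were tested. None of the 59 passed the edgeR test in either direction (0 higher and 0 lower, with 11 at an unadjusted p under 0.05), and DESeq2 called 1 of them higher, RABGGTB. The median log2 fold change was 0.09 (range -1.30 to 1.10). Over all tested genes 5279 of 10505 had a log2 fold change above 0. The counterpart was 11 of 14 for branches of the mevalonate route to dolichol, ubiquinone and protein prenylation (median 0.29). Those 14 included ACAT1 (0.10) and ACAT2 (0.13), thiolases that act ahead of HMG-CoA and not on a branch. The count above 0 was 8 of 10 for SREBP processing and degradation control (median 0.16) and 5 of 8 for sterol transport (median 0.05). It was 2 of 5 for late sterol steps and ester storage (median -0.07). That list also held HSD17B12, an enzyme of fatty acid chain elongation. For fatty acid supply, chain steps and activation the count was 9 of 22 (median -0.09), and these counts carry no test. NUS1, a subunit of the prenyltransferase for dolichol, was counted 39 and 51 times in WT and 73 and 79 times in KO, a log2 fold change of 1.03 (standard error 0.31, adjusted p in edgeR = 0.108). RABGGTB, the catalytic subunit that prenylates Rab proteins, was counted 156 and 454 times in WT and 546 and 441 times in KO, a log2 fold change of 1.10 (standard error 0.33, adjusted p in edgeR = 0.110). In both genes the KO libraries lay above the WT libraries in CPM. MECR, the reductase of mitochondrial fatty acid synthesis, was counted 96 and 174 times in WT and 46 and 66 times in KO, a log2 fold change of -0.97 (standard error 0.30, adjusted p in edgeR = 0.120). MID1IP1, an activator of acetyl-CoA carboxylase, was counted 297 and 573 times in WT and 474 and 760 times in KO, a log2 fold change of 0.81 (standard error 0.28, adjusted p in edgeR = 0.155). With KO clone 1 alone 3 of the 59 were higher and 3 lower, near the 5.99% and 3.21% of all genes tested there. With KO clone 5 alone 1 was higher, MID1IP1, and 0 lower, near the 1.22% and 0.481% of all genes.

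The authors' deposited table of comparisons listed 29 of the 36 genes among 6479, with 0 at an adjusted p under 0.05. In the authors' deposited table the lowest adjusted p of these genes was 0.0897, for EBP, with a log2 fold change of 1.11. The log2 fold changes in the authors' deposited table had the sign of the edgeR fit in 29 of 29 genes. In the authors' deposited table the test statistic had the opposite sign to the log2 fold change for 6478 of 6479 genes, and the mean level lay within 1% of the mean over the 4 libraries for 836 of them. The cause was not tested.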

How the data were processed

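Per the file headers, the authors deposited raw read counts per gene, a normalised signal (counts divided by 1 size factor a library) and a table of log2 fold changes with a Wald score and adjusted p-values. The submitters' processing notes name the build hg38 together with DESeq2 1.22.2, DESeq, Subread, SAMtools and minimap2. Count columns left unused numbered 0.

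Counts were tested in edgeR 4.0.16 (R 4.3.3; filterByExpr with minimum count 10 and total 15, TMM, robust quasi-likelihood F test, two-sided, Benjamini-Hochberg over 10505 genes, threshold 0.05). Standard errors were taken as log2 fold change divided by the root of F. CPM uses TMM-scaled totals. The median count per tested gene was 44 in WT A, 76 in WT B, 48 in clone 1 and 54 in clone 5. Scripts were tested on simulated data. The members and lists were chosen with earlier results of these data known. Full statistics were given for the 8 members with the lowest p, the SREBP targets INSIG1, SQLE, HMGCS1, SCD and FASN, and 4 related genes with the lowest p. Any other gene was named after its values were seen. Alternatives were 3 other scalings, mitochondrial genes left out, other count filters, DESeq2 1.42.0, limma-voom (limma 3.58.1), pseudogene counts added and each library left out. Positions and lengths came from GENCODE 44, and copies on 261 alternate contigs from minimap2 2.31 (80% cover, 98% identity).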

Additional observations from a re-analysis of the deposited data

How the results depend on the processing

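The count of the 33 genes called in KO against WT stayed at 0 higher and 0 lower under other scalings, both other tests, a mean of at least 50 counts and left-out mitochondrial genes. With no count filter 1 was called higher. Leaving out 1 library gave 0 to 5 higher and 0 to 1 lower, and all of these calls came without KO clone 5. Of the related genes, 1 was called higher with no count filter and 1 with DESeq2, and leaving out 1 library gave 0 to 3 higher and 0 to 3 lower, against 0 and 0. Calls over all genes were 166 higher and 64 lower. They were 19 and 11 with no scaling factor, 385 and 183 with no count filter, and 71 and 12 with a mean of at least 50 counts. DESeq2 called 24 lower, limma-voom 41 lower, and leaving out 1 library gave 91 to 674 higher and 42 to 361 lower. The median log2 fold change of the genes, 0.01, was 0.11 at a mean of at least 50 counts, where fewer of them were tested, and ran from -0.070 to 0.074 with 1 library left out. SCD ran from -0.31 to 0.19 and FASN from -0.39 to 0.94 with 1 library left out. Of 203 pairs of a named gene and a setting, 187 kept direction and side of the threshold, 13 newly passed and 3 reversed, the cause of which was not tested. None of these genes was called in the first place, so no call could be lost. No paired analysis was possible because the WT columns carry no replicate number and the groups share fewer than 2 numbers. With 2 libraries a group, changes of about 2-fold or less were mostly beyond reach of the adjusted test. Genes of under 100 counts were among those named. ELOVL5, with 1280 counts over the 4 libraries and KO clones 1.92-fold apart, also did not pass at 1.97-fold.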
